A study of Mus musculus with 12 samples.

Results

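The comparison set 3 libraries labelled Klf5KO against 3 libraries labelled Smad4KO, 6 of the 12 RNA sequencing libraries of the series, and covered the 13662 genes that reached a level of at least 1 TPM, the length-corrected share of a library's transcripts, in at least 3 of the 12. All 12 libraries came from 6649c2 mouse pancreatic tumour cells, grown as implants under the skin of C57BL/6 mice and then sorted out of the tumours. The Klf5KO and Smad4KO genotypes were the labels of the 6 libraries compared, and WT (3 libraries) and EgfrKO (3 libraries) were the other genotypes. WT and EgfrKO entered the filter on low values, the shared estimate of the spread and the scaling, and the chromosome values below are set against the mean of all 12 libraries. The WT levels of single genes are given only to show where the parental state lay. The sources used here give no age or treatment of the mice, no time of growth and no sort gate, and do not say whether each knockout was a single clone or whether replicates were separate animals. The p-values therefore measure the spread between these libraries, which may be technical, and clonal differences and loss of the named gene cannot be told apart.

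Klf5 encodes a zinc finger transcription factor that is active in proliferating epithelia of the gut and in ductal and tumour cells of the pancreas, where it helps to keep an epithelial state. Smad4 encodes the partner that joins receptor-activated Smad proteins, carries them to DNA and so relays signals of the TGF-beta and BMP families. Loss of SMAD4 is frequent in human pancreatic cancer, and TGF-beta signalling through SMAD4 can drive carcinoma cells from an epithelial towards a mesenchymal state. A comparison of both knockouts therefore sets cells labelled as lacking an epithelial factor beside cells labelled as lacking the mediator of a signal that opposes the epithelial state. Higher and lower refer below to the Klf5KO-labelled libraries relative to Smad4KO, and values in a run of 3 are replicates 1, 2 and 3 of a label.

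Smad4 transcripts were lower in the libraries labelled for its knockout, and Klf5 transcripts were only slightly lower in theirs. Smad4 was 101, 90.1 and 96.1 TPM in the Klf5KO-labelled libraries and 29.8, 33.4 and 28.9 TPM in Smad4KO, against 75.5 ± 4.45 TPM (SD, n = 3) in WT. The groups did not overlap, and the difference was 1.61 ± 0.07 (SE) on the log2(TPM + 1) scale (limma, adjusted p = 5.16e-09). Klf5, on chromosome 14 (99298691 to 99313412 in GRCm38.p6), was 100.5, 87.8 and 93.2 TPM in the Klf5KO-labelled libraries, 118, 137 and 119 TPM in Smad4KO and 112 ± 16.8 TPM (SD, n = 3) in WT. All 3 Klf5KO-labelled libraries lay below all 3 Smad4KO libraries, with a difference of -0.41 ± 0.10 (SE, adjusted p = 0.00313). Klf5KO-labelled replicate 1 lay above the lowest WT library (97.1 TPM). EgfrKO was 82.5, 89 and 83.2 TPM, so a level this low was not particular to the Klf5KO label. After scaling the Klf5 difference was -0.65, within the quartiles of chromosome 14 genes (-0.718 to -0.068). Gene-level TPM still counts the transcripts of an edited gene, so the Klf5 level does not check the Klf5KO label. Egfr, which was not the target in either label, was 6.99, 8.35 and 5.45 TPM in the Klf5KO-labelled libraries and 7.48, 10.03 and 6.35 TPM in Smad4KO, which overlap (adjusted p = 0.395). The two-sided exact permutation p was 0.1 for Klf5 and for Smad4, the smallest that 3 libraries against 3 allow, and 0.5 for Egfr.

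Sorted cells of both labels expressed simple epithelial keratins at high levels. Krt8 was 2066, 1840.4 and 1819.8 TPM in the Klf5KO-labelled libraries and 3027, 3426 and 3164 TPM in Smad4KO, and Krt18 was 2042, 1889 and 1808 TPM and 2699, 3114 and 2906 TPM. The adhesion gene Epcam, a common marker of carcinoma cells, was below 1 TPM in each Klf5KO-labelled library, at 0.679, 0.314 and 0.624 TPM. Libraries of 1 label correlated at 0.98 to 0.988 over genes on the log2(TPM + 1) scale, and Klf5KO-labelled with Smad4KO libraries at 0.917 to 0.928. Genes at 1 TPM or more numbered 12592 to 13141 in the 12 libraries. Depth is unknown, since TPM does not carry it. Smad4KO replicate 2 stood apart from its group in macrophage genes: Lyz2 was 276, 69.3 and 275 TPM in the Smad4KO libraries and the complement gene C1qa was 149, 29.9 and 162 TPM. For immune genes, counts and calls that changed without this library are given below.

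Most genes differed between the labels. Of the 13662 genes, 6210 (45.5%) were higher and 2506 (18.3%) were lower at an adjusted p under 0.05 by limma, which is what "called" means below. Differences are given in units of log2(TPM + 1), in which low genes seem to change less than they do, and the value after ± is their SE. The surplus of higher genes moved with the scale of the libraries. Each library sums to the same total TPM. Ribosomal protein genes took 12.6% to 14.1% of it under the Klf5KO label and 17.8% to 19.4% in Smad4KO. Beyond a recount without these genes, given below, the part of this share in the surplus was not tested. The median difference over all genes was 0.21 on the log2 scale as measured and -0.003 after median-of-ratios scaling, which sets the typical gene to no difference. After that scaling 4056 genes (29.7%) were called higher and 4211 (30.8%) lower, so that 49.1% of the calls were higher instead of 71.2%. Quantile normalization gave 4588 and 3759, of which 55% were higher. Leaving out the ribosomal protein genes gave 5365 and 2974, of which 64.3% were higher, with a median difference of 0.134. All 4056 genes higher after scaling had been higher as measured, and all 2506 genes lower as measured stayed lower, while 6 genes changed from higher to lower. Counts after scaling are given below as "scaled". Counts for gene lists are to be read beside the shares over all genes. These were 45.5% higher and 18.3% lower as measured, and 29.7% and 30.8% scaled. For 9177 genes (67.2%) the 3 libraries of 1 label did not overlap the 3 of the other.

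The calls in both directions also moved with markers of fibroblasts. With the mean log2(TPM + 1) of a fibroblast marker list as a covariate, 1017 of the 13662 genes were called higher and 926 lower. Of the 11 tested markers in that list, 9 were called higher under the Klf5KO label. The covariate therefore takes up part of the difference between labels whatever its source. The summed TPM of the list, a separate measure, was 348 to 714 under the Klf5KO label and 62.9 to 94 in Smad4KO, without overlap. In bulk RNA of sorted cells, fewer cells of a type and less RNA per cell cannot be told apart. The part of admixed fibroblasts in the results below was not tested.

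Differences of at least 1 on the log2 scale were found for 1038 genes called higher and 667 called lower (scaled 666 and 872). Among the 1038, the WT mean lay between the labels for 823 genes, nearer to Smad4KO for 488 and nearer to the Klf5KO-labelled libraries for 335. It lay above both labels for 85 and below both for 130. Among the 667 lower genes, the WT mean lay between the labels for 498, nearer to the Klf5KO-labelled libraries for 357 and nearer to Smad4KO for 141, above both for 43 and below both for 126. The large differences therefore included genes that stood away from WT mainly in 1 label, genes that stood away from it mainly in the other, and genes that lay on opposite sides of WT.

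The largest differences in favour of Smad4KO included epithelial secretory, mucosal and detoxification genes. Dmbt1, a mucosal scavenger receptor of glandular epithelia, was 2.12, 5.03 and 2.73 TPM in the Klf5KO-labelled libraries and 592, 688 and 550.1 TPM in Smad4KO, with WT between at 60.1 ± 9.79 TPM (SD, n = 3). That is 185 times as much in Smad4KO, a difference of -7.21 ± 0.20 (SE, adjusted p = 2.33e-10). Gpx2, the gastrointestinal glutathione peroxidase, was 115, 109.8 and 114 TPM in Smad4KO and listed at 0 in replicates 1 and 3 of the Klf5KO-labelled libraries. WT had 5.31 ± 1.64 TPM of it, so the high level was found in Smad4KO. The polymeric immunoglobulin receptor gene Pigr, which carries antibodies across epithelia, was 52.8, 54.4 and 53.1 TPM in Smad4KO and below 1 TPM in each Klf5KO-labelled and each WT library (WT 0.383 ± 0.217 TPM). The glutathione transferase gene Gsta1 was 3.79, 3.69 and 0.892 TPM in the Klf5KO-labelled libraries and 333, 347 and 332 TPM in Smad4KO. Gsta1 has close relatives such as Gsta2, among which Salmon can divide reads, so single members of that family are uncertain.

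Reg3b, an antibacterial lectin of inflamed mucosa, separated the labels in another way. It was 0.637, 0.775 and 1.21 TPM in the Klf5KO-labelled libraries, 81.1, 78.8 and 75.8 TPM in Smad4KO and 76.4 ± 21.2 TPM (SD, n = 3) in WT, so here Smad4KO was near WT and the Klf5KO-labelled libraries were low. Lgals4, a gut epithelial galectin, was 9.93, 9.7 and 6.4 TPM against 358, 364 and 357 TPM, with WT between at 71.8 ± 12 TPM. The surfactant protein gene Sftpd, the trypsin inhibitor gene Spink4, the regenerating gene Reg1, Gsta3, the alcohol dehydrogenase gene Adh7 and the mitochondrial creatine kinase gene Ckmt1 completed the 12 largest falls, with differences of -6.42 to -4.87 and adjusted p of 9.85e-07 to 1.28e-10 (Sftpd -6.42 ± 0.22, Spink4 -5.72 ± 0.47, Reg1 -5.28 ± 0.28, Gsta3 -5.31 ± 0.26, Adh7 -4.90 ± 0.25, Ckmt1 -4.87 ± 0.12, each with SE). No library of either label overlapped the other in these 12 genes, which the rule for naming them required.

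The largest differences in favour of the Klf5KO-labelled libraries included matrix, cytoskeletal and developmental genes. The reproductive homeobox gene Rhox5 on the X chromosome was 136, 124 and 156 TPM in the Klf5KO-labelled libraries and 7.31, 4.04 and 6.23 TPM in Smad4KO, with WT at 36.7 ± 12 TPM (SD, n = 3). Its difference was 4.37 ± 0.21 (SE, adjusted p = 1.36e-08), and 23.7 times as much transcript was measured as in Smad4KO. Ccbe1, a secreted factor of lymphatic vessel growth, was 24.7, 20.1 and 28.9 TPM against 0.253, 0.293 and 0.252 TPM, with WT at 11.6 ± 2.17 TPM, so Smad4KO had almost none of a gene that WT expressed. Armcx2, another X-linked gene, went the other way around: it was 26, 24.1 and 25.2 TPM against 0.276, 0.538 and 0.387 TPM, with WT low at 1.67 ± 0.202 TPM. Enpp2, which encodes the lysophospholipase autotaxin, was 122, 109.6 and 150.2 TPM against 10.8, 9.06 and 9.4 TPM, with WT near Smad4KO at 12.6 ± 1.86 TPM. The homeobox gene Meox1, Soga3, the collagen gene Col12a1, the secreted hormone gene Stc1, Lect2, the filamin gene Flnc, the nucleotide exchange factor gene Dock8 and the deubiquitinase gene Uchl1 completed the 12 largest rises (differences of 3.91 ± 0.13 for Meox1 and 3.65 ± 0.11 for Soga3, with SE, and 3.58 to 3.44 for Col12a1, Stc1, Lect2, Flnc, Dock8 and Uchl1).

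**Figure D1:**
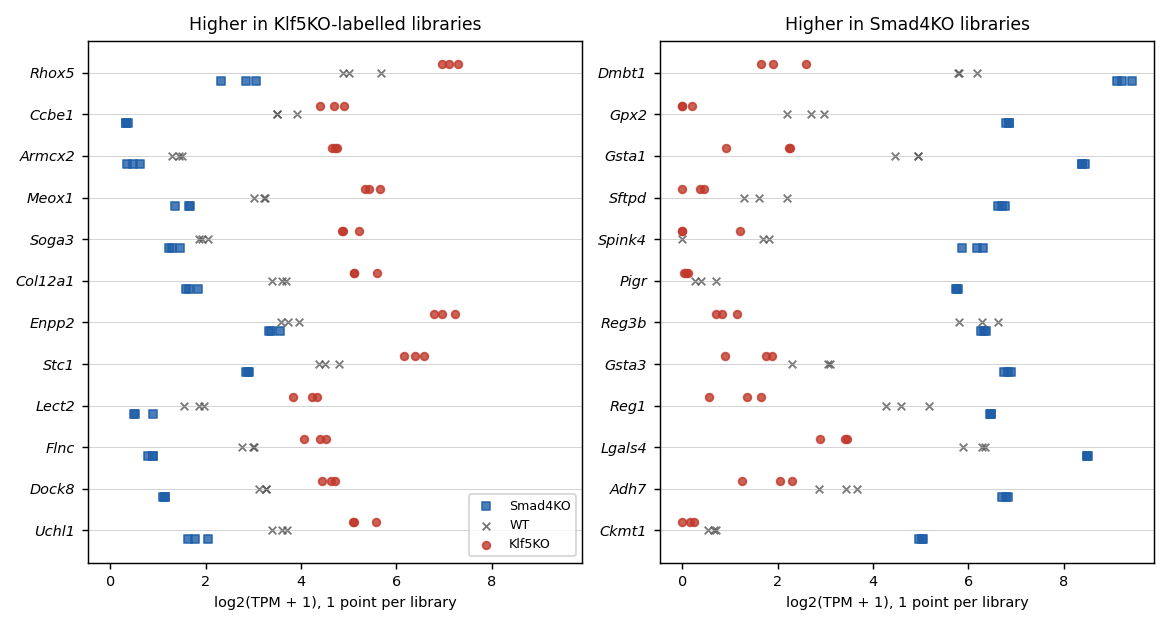
The horizontal axes give log2(TPM + 1) and each mark is 1 library, with circles for Klf5KO-labelled, squares for Smad4KO and crosses for WT (3 each), for the 12 genes with the largest difference in each direction. The labels stand apart in every row because the rule for choosing the genes asked for it, and WT sits at different places between them, near Smad4KO for Enpp2 and Reg3b and near the Klf5KO-labelled libraries for Pigr and Ckmt1.

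The start regions of 6 of these genes are shown because they are among the largest differences in each direction. Both factors that the labels name also bind DNA. They are the first 3 genes per direction, by size of difference, that have an entry in the RefSeq table of start regions used here. Dmbt1, Sftpd, Spink4, Ccbe1 and Meox1 are passed over. Each run is 300 bases from the RefSeq annotation of GRCm38.p6, from 250 bases before to 50 bases after the annotated start, 5′ to 3′ on the gene's strand. Capitals mark matches on either strand to CCNCNCCC, the box read by KLF and SP factors, and to CAGAC, the core box read by SMAD proteins. Rhox5 (X:37754358-37754657, + strand), Armcx2 (X:134809172-134809471, - strand) and Soga3 (chromosome 10, 29143746 to 29144045, + strand) were higher, and Gpx2 (chromosome 12, 76795505 to 76795804, - strand), Gsta1 (chromosome 9, 78230419 to 78230718, + strand) and Pigr (chromosome 1, 130826434 to 130826733, + strand) were lower.
Rhox5: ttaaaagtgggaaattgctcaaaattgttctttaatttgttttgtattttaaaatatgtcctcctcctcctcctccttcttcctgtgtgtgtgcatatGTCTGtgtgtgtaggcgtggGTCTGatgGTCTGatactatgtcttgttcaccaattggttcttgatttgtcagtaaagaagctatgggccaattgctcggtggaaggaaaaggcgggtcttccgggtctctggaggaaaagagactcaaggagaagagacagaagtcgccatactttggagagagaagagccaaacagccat
Armcx2: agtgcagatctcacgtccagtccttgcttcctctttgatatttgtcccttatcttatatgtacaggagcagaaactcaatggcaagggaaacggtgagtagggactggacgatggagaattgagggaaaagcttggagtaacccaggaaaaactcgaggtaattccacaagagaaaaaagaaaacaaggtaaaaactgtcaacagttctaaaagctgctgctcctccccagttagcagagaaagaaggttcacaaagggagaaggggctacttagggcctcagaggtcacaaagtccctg
Soga3: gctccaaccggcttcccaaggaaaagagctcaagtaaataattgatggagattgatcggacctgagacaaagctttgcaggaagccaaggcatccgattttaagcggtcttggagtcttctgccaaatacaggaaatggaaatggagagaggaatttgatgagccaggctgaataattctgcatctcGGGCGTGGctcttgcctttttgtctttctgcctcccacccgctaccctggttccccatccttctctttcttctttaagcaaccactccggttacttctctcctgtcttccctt
Gpx2: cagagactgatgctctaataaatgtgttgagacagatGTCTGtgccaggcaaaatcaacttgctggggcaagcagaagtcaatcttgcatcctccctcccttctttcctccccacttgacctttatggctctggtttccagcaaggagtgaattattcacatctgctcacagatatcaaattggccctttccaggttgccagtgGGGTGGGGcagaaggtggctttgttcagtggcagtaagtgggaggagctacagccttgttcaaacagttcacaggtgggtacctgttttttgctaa
Gsta1: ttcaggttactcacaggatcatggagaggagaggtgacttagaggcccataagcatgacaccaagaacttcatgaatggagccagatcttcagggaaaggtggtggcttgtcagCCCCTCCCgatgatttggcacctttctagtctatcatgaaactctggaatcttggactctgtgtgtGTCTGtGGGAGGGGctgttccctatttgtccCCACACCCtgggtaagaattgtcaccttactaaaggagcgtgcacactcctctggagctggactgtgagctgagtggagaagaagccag
Pigr: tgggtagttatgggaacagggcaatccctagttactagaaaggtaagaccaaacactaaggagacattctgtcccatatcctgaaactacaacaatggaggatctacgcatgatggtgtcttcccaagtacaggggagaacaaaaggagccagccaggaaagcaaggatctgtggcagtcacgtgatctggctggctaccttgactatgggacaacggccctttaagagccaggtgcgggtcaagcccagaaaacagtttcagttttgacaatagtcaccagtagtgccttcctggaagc

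Rhox5 held 3 matches to the SMAD box, Gpx2 1 of each box, Soga3 1 KLF and SP box, and Gsta1 3 KLF and SP boxes with 1 SMAD box. Neither box was found in the windows of Armcx2 and Pigr, which says only that these letters are absent there. Over the 10387 tested genes with a window, 67.7% held the KLF and SP box and 48% held the SMAD box. The boxes can share bases at their ends, and none did in the 6 windows shown. The KLF and SP box was in 71.7% of the 4767 windows of genes called higher and 68.2% of the 1947 of genes called lower. For the SMAD box the shares were 45.5% and 50.3%. Among all 27025 RefSeq windows, whether the gene was tested or not, 49.1% held the KLF and SP box and 49.7% the SMAD box. A match of letters is a description of the window and not a bound site.

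Genes of epithelial adhesion were mostly lower in the Klf5KO-labelled libraries. Of 21 tested members of that list, 14 were lower and 2 higher (scaled 19 and 0), with a median difference of -0.96 beside 0.21 over all genes. Epcam was 40.7, 41 and 36.8 TPM in Smad4KO against the values below 1 TPM given above, 73.3 times as much (-4.72 ± 0.12, SE, adjusted p = 1.75e-10). WT lay between the labels at 13.5 ± 1.84 TPM (SD, n = 3). The tight junction gene Ocln was 0.208, 0.299 and 0.101 TPM in the Klf5KO-labelled libraries and 25.3, 28.7 and 24.2 TPM in Smad4KO, and WT was again between at 3.22 ± 0.559 TPM. Tjp3, a scaffold of tight junctions, differed by -3.12 ± 0.12 (SE) and the desmosome gene Dsp by -2.18 ± 0.13 (SE). Cdh1, which encodes E-cadherin, was 283, 221 and 225 TPM in the Klf5KO-labelled libraries and 339, 379 and 336 TPM in Smad4KO. Its difference of -0.54 ± 0.09 (SE, adjusted p = 0.000285) was far smaller than that of Epcam or Ocln. The higher members included the tight junction scaffold Tjp1 (0.41 ± 0.11), which was not called after scaling. F11r, another junction gene and the most abundant member without a call, was 152, 139.7 and 142 TPM and 148, 164 and 145 TPM, and was lower after scaling.

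Transcription factors of the epithelial state followed. Of 10 tested, 6 were lower and 1 higher (scaled 9 and 1), with a median of -1.07. Elf3, an epithelial ETS factor, was 15.3, 14.1 and 11.6 TPM in the Klf5KO-labelled libraries, 168, 160.5 and 159 TPM in Smad4KO and 46 ± 5.06 TPM (SD, n = 3) in WT, a difference of -3.48 ± 0.10 (SE, adjusted p = 2.46e-10). Spdef, which directs secretory cells, differed by -3.23 ± 0.18 (SE). The 1 higher member was Prdm1, a zinc finger repressor, at 4.89, 6.41 and 4.47 TPM against 2.06, 2.1 and 1.74 TPM.

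Secreted and polarity genes of epithelia were lower in 13 of 16 tested and higher in 3 (scaled 13 and 2), with a median of -1.39. Spint2, a membrane inhibitor of serine proteases, was 219, 224 and 215 TPM in the Klf5KO-labelled libraries and 762, 781 and 770.3 TPM in Smad4KO. The 6 libraries fell into 2 tight groups, and the difference was -1.81 ± 0.05 (SE, adjusted p = 1.79e-10). The membrane serine protease genes were lower too, Tmprss2 by -3.45 ± 0.09 and Tmprss4 by -4.13 ± 0.12 (SE). Going the other way on both scales were Marcksl1 (1.35 ± 0.04) and the protease gene Prss22 (1.77 ± 0.10).

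Keratins were lower in 6 of 10 tested and higher in none (scaled 8 and 0). The 6 included Krt7, a ductal keratin, at 5.21, 6.33 and 3.67 TPM in the Klf5KO-labelled libraries against 131, 132 and 135 TPM in Smad4KO and 61.6 ± 3.15 TPM (SD, n = 3) in WT. Krt19, the main ductal keratin, was 714, 786 and 722 TPM and 1609, 1720.3 and 1694 TPM, a difference of -1.18 ± 0.05 (SE, adjusted p = 8.02e-09). Krt14 of basal cells was not called, at 52.8, 48.6 and 53.8 TPM and 47.8, 52.5 and 52.2 TPM, and was lower after scaling. Of 12 tested squamous and basal-like genes, 4 were lower and 2 higher (scaled 7 and 1, and 7 lower without Klf5KO replicate 2). The 4 lower ones included Lama3 (-1.80 ± 0.12) and Lamb3 (-1.93 ± 0.18), laminin chains of epithelial basement membranes, and the hormone gene Pthlh was higher (1.55 ± 0.15).

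Gastric and classical subtype genes, which mark well differentiated pancreatic tumours, made up the list with the lowest median, -2.67 over 25 tested members. Of these, 21 were lower and 1 was higher (scaled 22 and 1). The trefoil genes, which protect mucosa, were Tff1 (-4.17 ± 0.16), Tff2 (-4.80 ± 0.19) and Tff3 (-3.54 ± 0.29), with Tff2 at 102, 71.9 and 66.8 TPM in the Klf5KO-labelled libraries, 2350.2, 1942 and 2408 TPM in Smad4KO and 367 ± 102 TPM (SD, n = 3) in WT. Among mucins, Muc1 differed by -3.05 ± 0.14, Muc4 by -2.74 ± 0.14 and the gastric Muc5ac by -2.33 ± 0.17 (SE). Agr2, a chaperone for mucins, was 0, 0 and 1.21 TPM against 6.7, 7.55 and 9.08 TPM, without overlap. The 1 higher member was Lyz2, which macrophages also express and which stands with their markers below. Vsig1, a gastric adhesion gene, was not called, at 118, 96.5 and 108 TPM and 115, 129 and 109.7 TPM, and was lower after scaling.

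Mucosal defence and regenerating genes were lower in 14 of 17 tested and higher in 2 (scaled 14 and 1), with a median of -1.67. Wfdc2, a secreted protease inhibitor, was 343, 322 and 308 TPM in the Klf5KO-labelled libraries and 1606, 1562 and 1610.2 TPM in Smad4KO, which differed by -2.29 ± 0.05 (SE, adjusted p = 7.77e-11). WT was between at 852 ± 46.1 TPM (SD, n = 3). Reg3g, a relative of Reg3b whose reads can be divided with it, was 1.7, 1.26 and 1.53 TPM against 53, 57 and 48.8 TPM. The iron-binding lipocalin gene Lcn2 differed by -3.05 ± 0.23 (SE). Nos2, the inducible nitric oxide synthase, was higher (1.59 ± 0.11), and the acute phase gene Saa3 varied too widely for a call, at 1.23, 23.7 and 7.57 TPM and 42.8, 7.53 and 36.5 TPM.

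Detoxification and Nrf2 target genes were split. Of 27 tested, 16 were lower and 7 higher (scaled 18 and 4), with a median of -0.61. The lower ones were led by glutathione transferases and aldehyde dehydrogenases. Gsta4 was 85.2, 69.9 and 49.6 TPM in the Klf5KO-labelled libraries and 1253, 1192 and 1182 TPM in Smad4KO, with WT at 284 ± 51.1 TPM (SD, n = 3), a difference of -4.16 ± 0.17 (SE, adjusted p = 3.33e-09). Aldh3a1 was 8.92, 6.6 and 7.42 TPM against 83.6, 83.8 and 84.2 TPM, and the quinone reductase gene Nqo1 differed by -1.75 ± 0.12 (SE). Nfe2l2, which encodes Nrf2 itself, was lower by a smaller step (-0.50 ± 0.06). The cystine carrier gene Slc7a11 (1.14 ± 0.12) and the thioredoxin reductase gene Txnrd1 (0.57 ± 0.07), both also Nrf2 targets, were higher.

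Lineage transcription factors differed less than these products. Of 19 tested, 8 were lower and 5 higher (scaled 10 and 5), and no difference was larger than the 1.10 ± 0.10 (SE) of Sox4, a factor induced by TGF-beta. Sox9, the ductal factor, was 99.2, 104 and 103 TPM in the Klf5KO-labelled libraries and 57.7, 62.6 and 55 TPM in Smad4KO, with WT at 116 ± 9.51 TPM (SD, n = 3). The gut and liver factor Hnf4a was higher (0.44 ± 0.07), Gata4 was lower (-0.79 ± 0.06) and Gata6, a factor of the classical subtype, was not called at 65.6, 60.9 and 57.3 TPM and 51.7, 53.6 and 59.6 TPM. In the Klf family 6 of 13 tested were higher and 3 lower (scaled 4 and 4). These counts were near the shares over all genes, 45.5% and 18.3% (scaled 29.7% and 30.8%). Klf2, which is prominent in quiescent and endothelial cells, was 53.1, 67.9 and 59 TPM against 24.6, 25.4 and 28.1 TPM and Klf4, an epithelial differentiation factor, was 59, 66.6 and 49.4 TPM against 85.6, 94.4 and 90.7 TPM. The groups of neither overlapped, and the differences were 1.17 ± 0.15 and -0.63 ± 0.13 (SE).

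**Figure D2:**
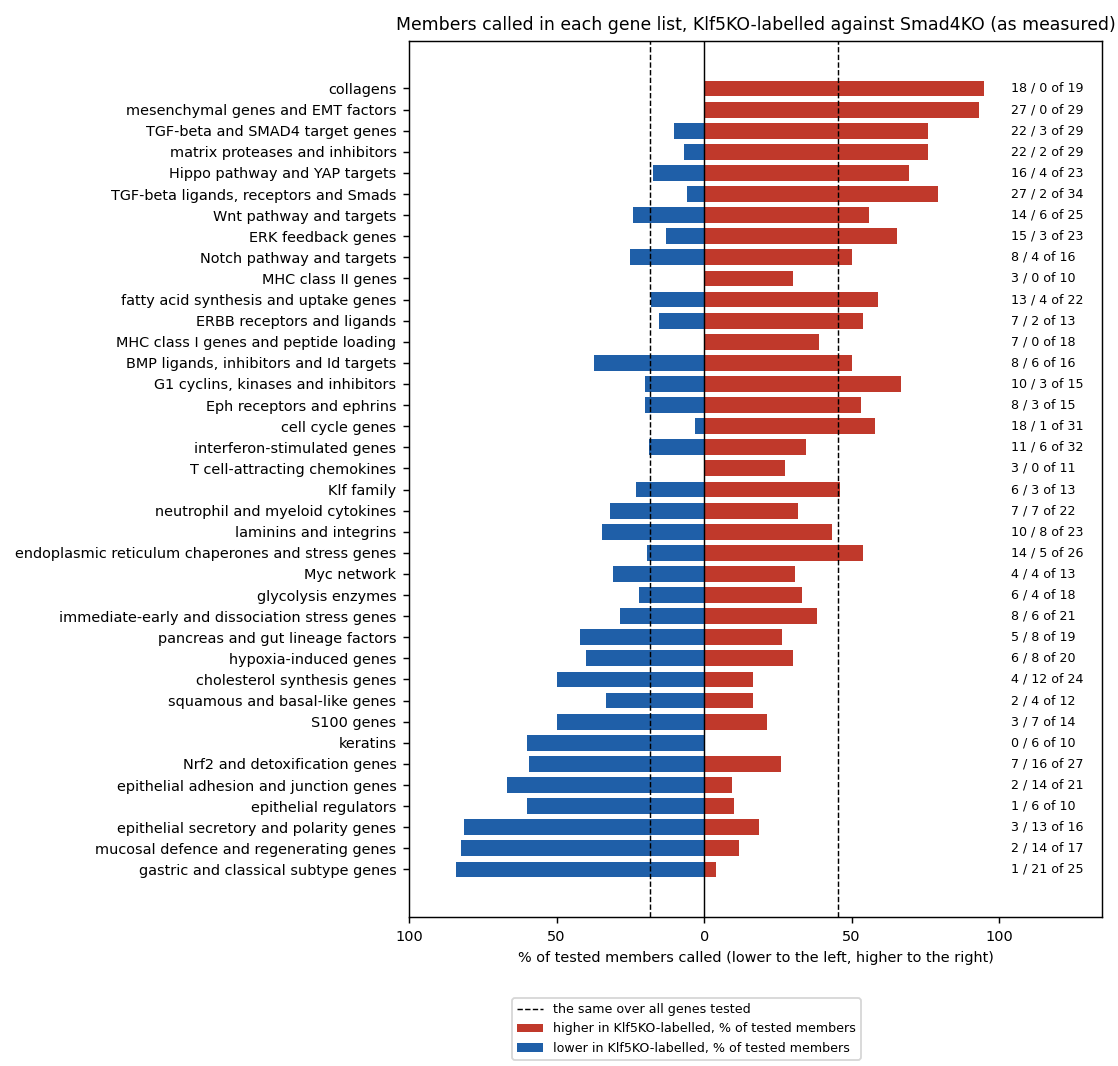
Bars give, for each of 38 gene lists in rows, the percentage of tested members called higher (right) and lower (left) in the Klf5KO-labelled libraries as measured, with the counts beside them and dashed lines at 45.5% and 18.3%, the same percentages over all genes tested. Collagens and mesenchymal genes reach furthest to the right with 18 of 19 and 27 of 29 members, and gastric and classical subtype genes furthest to the left with 21 of 25.

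Genes of the TGF-beta pathway were mostly higher in the Klf5KO-labelled libraries, from ligands down to targets. Of 34 tested ligands, receptors and Smads, 27 were higher and 2 lower (scaled 22 and 2), with a median of 0.59 beside 0.21 over all genes. Among ligands, Inhba, the subunit of activin A, was 134, 136 and 131 TPM in the Klf5KO-labelled libraries and 25.1, 26.5 and 23.1 TPM in Smad4KO, with WT between at 84.1 ± 10.1 TPM (SD, n = 3). The groups stood far apart (2.38 ± 0.08, SE, adjusted p = 1.18e-09). Tgfb1 was 163, 172 and 185 TPM against 81.4, 85.1 and 88.5 TPM, and here WT was near the Klf5KO-labelled libraries at 158 ± 4.97 TPM (SD, n = 3). Tgfb3 was higher by 0.56 ± 0.11 (SE) and Tgfb2 was not called (0.25 ± 0.15). Genes for proteins that hold or bind these ligands were among the higher ones. The activin antagonist gene Fst differed by 2.02 ± 0.13 and the latent TGF-beta binding protein gene Ltbp2 by 1.62 ± 0.14 (SE).

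The signalling receptors went in different directions. The type I receptor gene Tgfbr1 was higher (1.27 ± 0.10, SE) and the type II receptor gene Tgfbr2 was lower, at 31.4, 26.4 and 27 TPM against 34.1, 36.8 and 32.7 TPM (-0.28 ± 0.08). Receptor-activated Smads were higher, Smad2 by 0.69 ± 0.08 and Smad3 by 0.55 ± 0.06 (SE). The inhibitory Smad6 was lower (-0.40 ± 0.09), and the inhibitory Smad7, which TGF-beta induces, was higher as measured (0.37 ± 0.07) and not called after scaling. Smad4 itself belongs to this list and is the gene that 1 label names as knocked out.

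Among 29 tested targets of TGF-beta and SMAD4, 22 were higher and 3 lower (scaled 19 and 3), with a median of 1.08. Igfbp3, an insulin-like growth factor binding protein, was 653, 745 and 601 TPM in the Klf5KO-labelled libraries, 104, 112 and 114 TPM in Smad4KO and 526 ± 74.6 TPM (SD, n = 3) in WT. Smad4KO was low against both of these, and the difference between the labels was 2.59 ± 0.10 (SE, adjusted p = 1.96e-09). EgfrKO was 196, 196 and 191 TPM, so a level below WT was not particular to Smad4KO. Spsb1, a substrate adaptor for protein breakdown, was 52.1, 49.1 and 47.5 TPM against 7.09, 7.15 and 7.01 TPM, with WT between at 27.8 ± 2.74 TPM. Tgfbi, a secreted matrix protein named for its induction by TGF-beta, differed by 2.69 ± 0.19, Thbs1, which can activate latent TGF-beta, by 2.36 ± 0.10 and the chromatin factor Hmga2 by 1.82 ± 0.08 (SE each). The exceptions were the cell cycle inhibitor Cdkn1a (-0.93 ± 0.14), Bhlhe40 (-0.70 ± 0.09) and Ctgf (-0.27 ± 0.09), all lower. The call of Ctgf was lost without Klf5KO replicate 1, Klf5KO replicate 3 or Smad4KO replicate 1.

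With the fibroblast list as a covariate, 10 of the 34 pathway genes and 13 of the 29 targets were called higher, beside 1017 of all 13662 genes. Collagens Col4a1 and Col4a2 and the matrix gene Tnc are among the targets, and fibroblasts express them too.

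**Figure D3:**
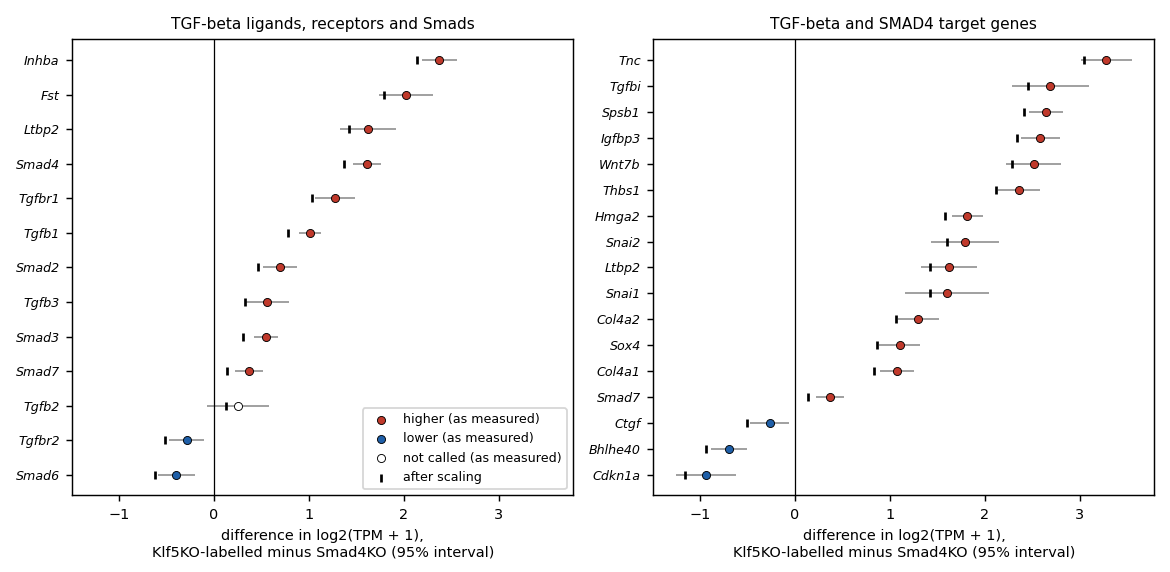
Points give the difference in log2(TPM + 1), Klf5KO-labelled minus Smad4KO, with its 95% interval from limma for the members of the TGF-beta pathway list (left) and target list (right) that the text names, filled by call, and a black tick gives the value after scaling. Inhba and Tnc lead the lists at 2.38 and 3.28, and Smad6 and Cdkn1a are lowest at -0.40 and -0.93.

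The BMP branch, which also uses Smad4, was mixed. Of 16 tested genes, 8 were higher and 6 lower (scaled 8 and 8), beside 45.5% and 18.3% (scaled 29.7% and 30.8%) over all genes. The inhibitor of differentiation gene Id1, a direct BMP target, was 30.1, 33.3 and 31.6 TPM in the Klf5KO-labelled libraries and 89.9, 85 and 82.1 TPM in Smad4KO, with WT at 62.8 ± 1.31 TPM (SD, n = 3), so of these 3 genotypes its level was highest in Smad4KO. Its relative Id3 differed in the opposite direction (1.61 ± 0.28) from Id1 (-1.41 ± 0.06), and Id2 was lower by less (-0.41 ± 0.10, SE each). The ligand Bmp4 was lower (-1.01 ± 0.11) and the secreted inhibitor Grem1 higher, at 16, 16.4 and 17.3 TPM against 5.04, 5.79 and 3.77 TPM.

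Mesenchymal genes differed in the opposite direction to the epithelial lists. Of 29 tested, 27 were higher and none lower as measured (scaled 26 and 1), with a median of 1.30. Tnc, the matrix glycoprotein tenascin C, was 82.5, 60.8 and 73.2 TPM in the Klf5KO-labelled libraries, 6.65, 7.54 and 5.41 TPM in Smad4KO and 20.8 ± 1.33 TPM (SD, n = 3) in WT (3.28 ± 0.12, SE, adjusted p = 2.37e-09). Cdh2, which encodes N-cadherin, was 139, 124 and 127 TPM against 38.3, 43.6 and 36.4 TPM, with WT at 55.8 ± 0.678 TPM. The receptor kinase gene Axl, a marker of mesenchymal carcinoma cells, was 251, 223 and 222 TPM against 78.2, 87.4 and 78 TPM, and WT was between at 149 ± 8.07 TPM.

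The factors that repress epithelial genes were higher as well. Zeb1 was higher by 1.26 ± 0.09, Zeb2 by 1.47 ± 0.10, Snai1 by 1.60 ± 0.20 and Snai2 by 1.80 ± 0.16 (SE each), and Twist1 was not called (0.36 ± 0.20). Vim, the intermediate filament of mesenchymal cells, was already abundant in both labels, at 3769, 3583 and 3681 TPM against 2379, 2711 and 2543 TPM, and differed by 0.53 ± 0.06 (SE). Fibronectin, Fn1, was 1370.5, 1386 and 1251 TPM and 509, 546 and 456 TPM. Tpm2, a tropomyosin, was not called as measured (-0.07 ± 0.06) and was lower after scaling. With the fibroblast covariate 11 of the 29 were called higher, beside 1017 of all 13662 genes.

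Collagens differed most among the matrix lists: 18 of 19 tested were higher and none lower (scaled 18 and 0), with a median of 2.24. Col12a1, of the fibril-associated type, was 47.5, 33.5 and 33.7 TPM in the Klf5KO-labelled libraries and 2.16, 2.59 and 2.03 TPM in Smad4KO, and Col5a1, of the fibrillar type, was 53.8, 37 and 46.9 TPM and 4.24, 4.91 and 4.44 TPM. WT lay between at 10.8 ± 1.2 and 16 ± 1.49 TPM (SD, n = 3). Col1a1 and Col1a2, the chains of type I collagen that fibroblasts make in bulk, were 239, 112 and 139 TPM against 17.1, 24.2 and 16.1 TPM and 178, 81.8 and 96.7 TPM against 13.7, 19 and 13.1 TPM, highest in Klf5KO-labelled replicate 1. Both of these and Col3a1 also belong to the fibroblast list and make up part of its sum. Col27a1 was the member without a call. With the fibroblast covariate 7 of the 19 collagens were called higher and 1 lower, beside 1017 and 926 of all 13662 genes.

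Receptors and enzymes of the matrix were less uniform. Of 23 tested laminin and integrin genes, 10 were higher and 8 lower (scaled 9 and 8). The shares over all genes were 45.5% higher and 18.3% lower (scaled 29.7% and 30.8%). Itga5, the fibronectin receptor chain, was 113, 117 and 109.7 TPM in the Klf5KO-labelled libraries, 28.2, 28.4 and 25.5 TPM in Smad4KO and 90.7 ± 4.53 TPM (SD, n = 3) in WT (2.01 ± 0.06, SE, adjusted p = 5.29e-10). Lama4, a laminin chain of vessels and mesenchyme, and Lamb1 were higher (2.29 ± 0.12 and 1.69 ± 0.08, SE), whereas Lama3, Lamb3 and Lamb2 (-1.09 ± 0.09) were lower. Of 29 tested matrix proteases and inhibitors, 22 were higher and 2 lower (scaled 18 and 5). Mmp2, the type IV collagenase, differed by 2.37 ± 0.19, Mmp13 by 2.04 ± 0.17 and the inhibitor Timp2 by 0.91 ± 0.05, and the membrane-type Mmp15 was lower, at 4.7, 4.91 and 4.21 TPM against 16.4, 19.2 and 14.6 TPM.

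Receptors and ligands of the ERBB family were higher in 7 of 13 tested and lower in 2 (scaled 7 and 3). Over all genes, 45.5% were higher and 18.3% lower (scaled 29.7% and 30.8%). The clearest difference was in Erbb3, the receptor for neuregulins, at 3.39, 3.61 and 2.44 TPM in the Klf5KO-labelled libraries, 31.2, 36.6 and 28.9 TPM in Smad4KO and 13.1 ± 2.08 TPM (SD, n = 3) in WT (-3.01 ± 0.14, SE, adjusted p = 8.37e-09). Its ligand Nrg1 went the other way (1.46 ± 0.15). The Egfr ligands Hbegf (0.91 ± 0.07) and Tgfa (0.90 ± 0.07) and the feedback inhibitor Errfi1 (1.14 ± 0.05) were higher, and Erbb2 was 60.8, 48.6 and 51.4 TPM and 46.9, 48.9 and 46.8 TPM without a call. Of 23 tested ERK feedback genes, 15 were higher and 3 lower (scaled 11 and 3, and 6 lower without Klf5KO replicate 2). Etv4, an ETS factor induced by ERK, was 141, 131 and 143 TPM against 53.8, 55.5 and 55.3 TPM and the ERK phosphatase gene Dusp6 was 161, 195 and 157 TPM against 81.5, 87.9 and 82.7 TPM. No library of 1 label reached the range of the other in either gene. Spry2 (-0.27 ± 0.08), Phlda1 (-0.68 ± 0.08) and Myc (-0.35 ± 0.07) were lower, Spry2 without a call when Klf5KO replicate 3 was left out.

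Immediate-early and dissociation stress genes were higher in 8 of 21 tested and lower in 6 (scaled 6 and 9), beside 45.5% and 18.3% over all genes. The lower ones included Fos, at 84.4, 222 and 81.4 TPM in the Klf5KO-labelled libraries and 348, 315 and 334 TPM in Smad4KO, and the antiproliferative gene Btg2 (-1.76 ± 0.17). Klf5KO-labelled replicate 2 was highest of its group in Fos. Junb was not called, at 569, 718 and 596 TPM and 596, 600.2 and 638 TPM. Chaperones were among the higher ones, with Hsph1 at 85, 87.4 and 88.4 TPM against 26.2, 28.9 and 26.4 TPM.

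In the Wnt pathway 14 of 25 tested genes were higher and 6 lower (scaled 13 and 8). Over all genes, 45.5% were higher and 18.3% lower (scaled 29.7% and 30.8%), and the Notch counts below were near these shares as measured. The ligand Wnt7b was 34.2, 27.8 and 34.5 TPM in the Klf5KO-labelled libraries and 4.16, 4.51 and 5.8 TPM in Smad4KO, and Wnt5a, a non-canonical ligand, was 9.48, 8.43 and 10.8 TPM and 0.742, 1.04 and 1.23 TPM. WT lay between in both, at 15.2 ± 2.47 and 4.55 ± 0.128 TPM (SD, n = 3). The receptor Lgr5 was higher (1.46 ± 0.15) and its relative Lgr4 lower (-1.52 ± 0.14, SE). Notch genes were higher in 8 of 16 tested and lower in 4 (scaled 7 and 5): the receptors Notch1 (0.78 ± 0.08) and Notch2 (0.97 ± 0.10) and the DNA-binding partner Rbpj (1.24 ± 0.06) were higher, and the ligands Jag2 (-1.57 ± 0.10) and Dll1 (-1.20 ± 0.10) lower. Hippo pathway genes and YAP targets were higher in 16 of 23 tested and lower in 4 (scaled 15 and 6). Yap1 differed by 0.53 ± 0.07 and its target Ankrd1 was 123, 118 and 116 TPM against 63.4, 65.9 and 63.5 TPM.

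Eph receptors and ephrins were higher in 8 of 15 tested and lower in 3 (scaled 6 and 4), with Efnb2 (0.89 ± 0.07) among the higher and Efna1, at 44.4, 70.02 and 48.4 TPM against 142, 150.0 and 146 TPM, among the lower. The Eph and ephrin counts as measured were near the shares over all genes, 45.5% higher and 18.3% lower. In the Myc network 4 of 13 tested were higher and 4 lower (scaled 2 and 5). Mycn, a close relative of Myc, was 3.65, 2.82 and 4.17 TPM in the Klf5KO-labelled libraries, 20.4, 23.3 and 18.1 TPM in Smad4KO and 8.85 ± 0.64 TPM (SD, n = 3) in WT (-2.25 ± 0.12, SE, adjusted p = 2.8e-08).

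Antigen presentation genes had median differences of 0.38 (MHC class II) and 0.35 (class I), beside 0.21 over all genes. After scaling the medians were 0.138 and 0.108, beside -0.003. Of 10 tested MHC class II genes 3 were higher and none lower (scaled 2 and 0, and 2 higher without Smad4KO replicate 2). Cd74, the invariant chain, was 3087, 2643 and 2921 TPM in the Klf5KO-labelled libraries and 2722, 2226 and 2819.8 TPM in Smad4KO, which overlap, with WT at 210.0 ± 77.2 TPM (SD, n = 3). The 3 were Ciita, the class II activator (0.50 ± 0.20, adjusted p = 0.0484), which was not called after scaling or without any one of 9 of the 12 libraries, H2-Eb2 (0.94 ± 0.15) and the lysosomal protease gene Ctss, which macrophages also express. Of 18 tested class I and peptide loading genes, 7 were higher and none lower (scaled 4 and 0). Both shares as measured were below those over all genes, 45.5% and 18.3%. Without WT replicate 3, which enters only through the spread shared by all libraries, 6 class II and 11 class I genes were higher. B2m, the class I light chain, was 3988, 4598 and 4319 TPM and 4354, 4200.2 and 4303 TPM, and Nlrc5, the class I activator, was 50.6, 41.7 and 40.6 TPM against 23.3, 22 and 20.5 TPM (0.97 ± 0.19, SE, adjusted p = 0.000893). H2 genes are near copies of each other, so the division of reads among them is uncertain.

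Interferon-stimulated genes were higher in 11 of 32 tested and lower in 6 (scaled 5 and 7), beside 45.5% and 18.3% (scaled 29.7% and 30.8%) over all genes. Leaving out 1 library at a time moved the 11 to between 6 and 18: it was 6 without Klf5KO replicate 1, 7 without Smad4KO replicate 2 or 3, and 18 without WT replicate 3. Oas2, an antiviral RNA sensor, was 3.77, 5.53 and 3.54 TPM in the Klf5KO-labelled libraries and 19.1, 17.6 and 18.3 TPM in Smad4KO, and Irf7 was 23, 28.1 and 18.6 TPM and 47.9, 39.9 and 46.8 TPM. Irf8 was higher (1.89 ± 0.13, SE). Cd274, which encodes the checkpoint ligand PD-L1, was 15.2, 15.4 and 13.2 TPM against 11.7, 9.77 and 9.24 TPM, a difference of 0.47 ± 0.10 (SE, adjusted p = 0.00122), and was not called after scaling without Smad4KO replicate 2 (0.20, adjusted p = 0.0993).

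Of 11 tested chemokines that attract T cells, 3 were higher and none lower (scaled 2 and 2, and 1 lower without Smad4KO replicate 2), among them Ccl5 at 27.6, 38.2 and 33.9 TPM against 8.26, 10.04 and 16.5 TPM. Ccl5 was called without that library as measured and lost the call without it after scaling (1.16, adjusted p = 0.0663). Cxcl9 was 208, 144 and 146 TPM and 124, 126 and 126 TPM and was not called. Among 22 neutrophil and myeloid cytokines, 7 were higher and 7 lower (scaled 7 and 9, and 8 lower without Smad4KO replicate 2). Both lists stand beside 45.5% higher and 18.3% lower over all genes (scaled 29.7% and 30.8%). The lower ones were led by Ccl20, an epithelial chemokine for dendritic and Th17 cells, at 0.587, 0.83 and 0.896 TPM in the Klf5KO-labelled libraries and 26.6, 19.3 and 26.7 TPM in Smad4KO, with WT at 6.08 ± 3.06 TPM (SD, n = 3). The neutrophil attractants Cxcl1 (-1.02 ± 0.29) and Cxcl5 (-0.83 ± 0.12) were lower, and the macrophage growth factor Csf1 (1.02 ± 0.09) and Il11, a cytokine induced by TGF-beta (1.96 ± 0.15), were higher (SE each).

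Markers of other cells were present at different levels in the labels. Of 8 pan-leukocyte markers, 7 were higher and none lower (scaled 6 and 0, and 6 higher without Smad4KO replicate 2), with sums of 169 to 253 TPM under the Klf5KO label and 54 to 104 TPM in Smad4KO. Ptprc, which encodes CD45 and defines leukocytes, was 6.74, 6.56 and 7.86 TPM and 3.59, 1.95 and 3.43 TPM. Of 15 macrophage and monocyte markers, 9 were higher and 1 lower (scaled 4 and 1), and without Smad4KO replicate 2 the counts were 4 and 2. Without Klf5KO replicate 2 or 3 the count of higher markers was also 4. Their sums overlapped, at 1390 to 2210 TPM and 492 to 1600 TPM. Arg1, an enzyme of alternatively activated macrophages, was 91.2, 152 and 168 TPM against 30.4, 14.4 and 28.4 TPM and Cd14 was lower, at 126, 161 and 139 TPM against 231, 222 and 220.2 TPM. Retnla, another gene of such macrophages, was not called, at 51.1, 115 and 104 TPM and 468, 57.5 and 470.3 TPM, and was lower without Smad4KO replicate 2 (log2 difference -2.45, limma adjusted p = 0.00047).

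Fibroblast markers were higher in 9 of 11 tested and lower in none (scaled 9 and 0, and 11 higher without Smad4KO replicate 2), with a median of 1.67. Pdgfrb, the receptor that marks fibroblasts and pericytes, was 10.5, 8.15 and 7.88 TPM against 0.973, 1.32 and 0.927 TPM, and Dcn, a small proteoglycan, was 14.1, 11.7 and 12.7 TPM against 3.42, 4.08 and 2.64 TPM. Pdgfra, another defining marker, differed by 0.93 ± 0.21 (SE). No fibroblast marker was at 0 in all 6 libraries. Endothelial markers were low, with summed TPM of 20.4 to 24.2 and 17.9 to 19.5, and 3 of 4 tested were higher and 1 lower (scaled 3 and 1). Of 5 neutrophil markers limma called none on either scale, with the smallest p for Cxcr2 (0.0511 unadjusted, 0.0761 adjusted), which was called without Klf5KO replicate 3. Of 9 T and NK cell markers 3 were higher and none lower (scaled 1 and 0, 2 higher without Smad4KO replicate 2 and 1 without Klf5KO replicate 3), with sums of 15.9 to 23.5 and 10.5 to 16.2 TPM. The part of admixed cells in the immune and matrix results was not tested.

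**Figure D4:**
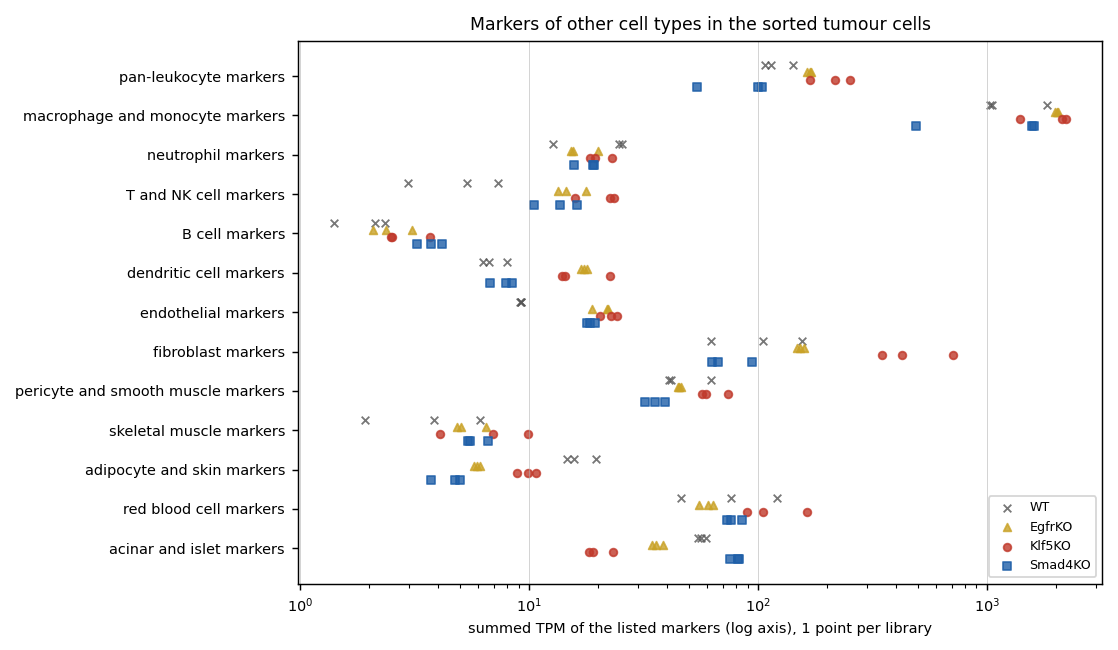
The horizontal log axis gives the summed TPM of the markers of each cell type in rows, and each mark is 1 of the 12 libraries (circles Klf5KO-labelled, squares Smad4KO, crosses WT, triangles EgfrKO). Fibroblast sums of 348 to 714 TPM in the Klf5KO-labelled libraries lie above the other 9 libraries, and Smad4KO replicate 2 is the lowest library for macrophage markers at 492 TPM.

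Hypoxia-induced genes were lower in 8 of 20 tested and higher in 6 (scaled 11 and 3). These counts and those of glycolysis stand beside 18.3% lower and 45.5% higher over all genes (scaled 30.8% and 29.7%). Car9, a carbonic anhydrase induced by low oxygen, was 44.4, 68.6 and 39.9 TPM in the Klf5KO-labelled libraries, 231, 232 and 235 TPM in Smad4KO and 198 ± 12.2 TPM (SD, n = 3) in WT (-2.21 ± 0.15, SE, adjusted p = 1.98e-07). Egln3, an oxygen sensor, was lower too (-1.61 ± 0.16), and Slc2a1, the main glucose carrier, was not called at 174, 231 and 191 TPM and 166, 182 and 173 TPM. Of 18 glycolysis enzymes and carriers 6 were higher and 4 lower (scaled 2 and 8, and 2 lower without WT replicate 2, EgfrKO replicate 2, Klf5KO replicate 1 or Smad4KO replicate 2), with the lactate carrier Slc16a3 highest (1.31 ± 0.08) and Gapdh not called at 5233, 6142 and 5649.8 TPM and 5344, 5674 and 5526 TPM.

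Cholesterol synthesis genes were lower in 12 of 24 tested and higher in 4 (scaled 18 and 2), with Fdps, which makes the farnesyl precursor, at 156, 143 and 156 TPM against 250.2, 288 and 259.9 TPM. Fatty acid genes were higher in 13 of 22 tested and lower in 4 (scaled 9 and 7). The shares over all genes were 45.5% higher and 18.3% lower (scaled 29.7% and 30.8%). Acly, which supplies acetyl groups, was 149, 128 and 139 TPM against 79.7, 81.8 and 77.4 TPM, and the malic enzyme gene Me1 was 123, 122 and 125 TPM against 228, 272 and 231 TPM.

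Proliferation genes depended on the scale. Counts in this paragraph stand beside 45.5% higher and 18.3% lower over all genes (scaled 29.7% and 30.8%). Of 31 cell cycle genes 18 were higher and 1 lower as measured, and 7 were higher and 6 lower after scaling. Foxm1, a factor of mitotic genes, was 56, 41.9 and 51.3 TPM in the Klf5KO-labelled libraries and 26.2, 29.4 and 24.3 TPM in Smad4KO (0.87 ± 0.10, and 0.63 after scaling), and Mki67 differed by 0.56 ± 0.13 (SE). Of 15 G1 genes, 10 were higher and 3 lower (scaled 5 and 3), with cyclin D1, Ccnd1, at 317, 251 and 296 TPM against 149, 179 and 153 TPM and its inhibitor Cdkn1a at 14.4, 15.9 and 20.2 TPM against 34, 31.6 and 32.8 TPM. Of 26 endoplasmic reticulum genes 14 were higher and 5 lower (scaled 7 and 10, and 3 lower without Klf5KO replicate 3). The endoplasmic reticulum counts as measured were near the shares over all genes. Ern2, a stress sensor of mucus-secreting cells, was 5.26, 4.76 and 3.28 TPM in Smad4KO and listed at 0 in replicates 2 and 3 of the Klf5KO-labelled libraries. Of 14 S100 genes 7 were lower and 3 higher (scaled 8 and 3), with the calcium binder S100g at 1.15, 1.22 and 0.572 TPM against 57.4, 54.2 and 52.6 TPM and S100a4, a mesenchymal member, higher by 0.60 ± 0.07 (SE).

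Differences after scaling were not spread evenly over the chromosomes. Over 10210 genes with a mean of at least 5 TPM and a chromosome in RefSeq, the median was -0.016 and 51.3% of genes were below 0. On chromosome 14, which holds Klf5, the median of 356 genes was -0.367 and 81.5% were below 0. Chromosome 12 followed at -0.265 with 75.2% of 351 genes below 0, and chromosome 3 at -0.202. In the other direction stood chromosome 10 with a median of 0.241 and 73% of 467 genes above 0, chromosome 4 with 0.226 and chromosome X with 0.198.

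The median deviation of chromosome 14 genes from the mean of the 12 libraries was -0.223, -0.204 and -0.212 in the Klf5KO-labelled libraries and 0.127, 0.195 and 0.134 in Smad4KO. WT was at 0.058, 0.064 and 0.041 and EgfrKO at 0.014, 0.007 and 0.005, so both labels lay away from WT, on opposite sides. For chromosome 12 the values were -0.089, -0.075 and -0.131 against 0.149, 0.195 and 0.153. Libraries of the labels did not overlap for 18 of 20 chromosomes. These are descriptions over genes that share a chromosome, and copy number was not tested.

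**Figure D5:**
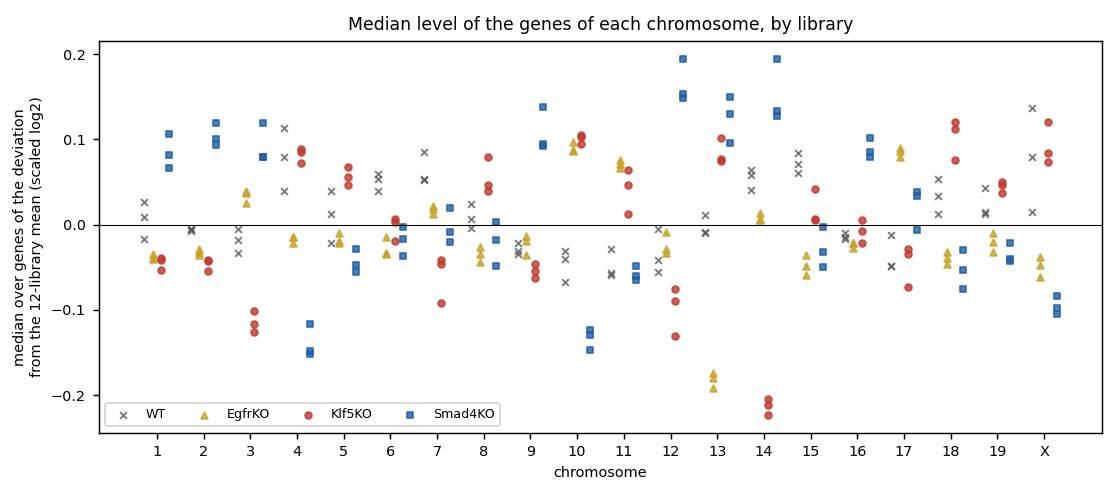
Each mark is the median, over the genes of a chromosome (horizontal axis), of a library's deviation from the mean of the 12 libraries in scaled log2(TPM + 1) (vertical axis), with circles for Klf5KO-labelled, squares for Smad4KO, crosses for WT and triangles for EgfrKO. Libraries of a label lie close together, and on chromosome 14 the Klf5KO-labelled libraries are at -0.223 to -0.204 while Smad4KO is at 0.127 to 0.195.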

How the data were processed

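RNA was sequenced from 12 libraries of sorted tumour cells, 3 for each of 4 genotype labels, and grouped by label. The authors deposited 1 table of TPM values, which weigh reads by transcript length and sum to the same total in each library, over 24493 gene symbols. Salmon and the mm10 build were used, per the submitters' processing notes, and its version, the annotation and the summing of transcripts were not given in the sources used here. TPM keeps no read depth, so no counting intervals are given.

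Values were taken as log2(TPM + 1) for 13662 genes that reached 1 TPM in 3 or more libraries. All 12 libraries entered 1 fit with a mean per label, by limma 3.58.1 in R 4.3.3 (eBayes with a trend), so that all labels share 1 estimate of the spread, and the contrast Klf5KO minus Smad4KO was taken from it. Tests were two-sided and adjusted by Benjamini and Hochberg's method over all genes, with a threshold of 0.05. Intervals are 95%. Counts after median-of-ratios scaling are shown beside the list counts, except those with a covariate. Tested on simulated data made from these genes, the fit recovered 44 of 67 differences of 0.5, 62 of 67 of 1 and 64 of 66 of 2 on the log2 scale, with 11 false calls among 13462 unchanged genes. The simulated data held few changed genes and no shift in scale between labels. They therefore do not gauge false calls in the contrast itself, where most genes were called.

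The members, the 51 gene lists (38 themes and 13 cell types) and the tests were chosen with earlier results of these data known, and lists are described by counts with no test of their own. Genes named are Klf5, Smad4 and Egfr, the 12 largest differences per direction among called genes without overlap and with a mean of at least 5 TPM, and for each list those with the smallest adjusted p per direction and the most abundant without a call. Further members are named for their known role and were chosen after their values were seen. Some genes that the rule names are not reported here. Of the symbols, 23852 (97.4%) matched RefSeq's annotation of GRCm38.p6, which gave positions and start regions. Figures were drawn with matplotlib 3.10.9.

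Alternatives were other pseudocounts and filters, median-of-ratios and quantile scaling, leaving out abundant, ribosomal or small RNA genes, other treatments of the spread, only the 6 libraries, a replicate block, marker lists as covariates, a minimum fold and leaving out each library. Scaling together with leaving out Smad4KO replicate 2 was added after the data were seen.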

Additional observations from a re-analysis of the deposited data

How the results depend on the processing

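Of 6210 genes higher and 2506 lower, leaving out each of the 12 libraries in turn left 5609 to 6197 higher and 2265 to 2518 lower. Median-of-ratios scaling gave 4056 higher and 4211 lower, and the same without Smad4KO replicate 2 gave 3833 and 4005. Quantile normalization gave 4588 and 3759. The fibroblast list as a covariate left 1017 and 926, and a minimum fold change of 1.5 left 1227 and 695, a stricter hypothesis by its construction. Other alternatives left both counts within 1.5 times, and the cause of the larger moves was not tested.

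Deviations of same-numbered libraries from the means of their labels were weakly correlated (r of -0.11, -0.07 and 0.12). With 3 libraries per label these values cannot exclude a pairing by number. A fit with a replicate block called 6183 and 2514 genes.

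Of 3162 counts over lists recomputed, 2840 stayed within 1.5 times. Most of the rest were counts of a few genes. Of 6465 recomputed values of named genes, 6245 kept their side of the threshold, 156 lost the call, 44 gained it and 20 turned direction with a call before or after. Values without a call in either fit, such as those of B2m, Gapdh, Junb, Cd74 and Slc2a1 under scaling, also changed sign and are among the 6245. Krt14 turned to -0.21 under scaling, -0.18 under quantile normalization and -0.21 under scaling without Smad4KO replicate 2. With the fibroblast covariate Actb turned to -0.13, Ccl5 to -0.25, Chil4 to 0.44, Ciita to -1.002, Col1a2 to -0.27, Col3a1 to -0.96, Cxcl1 to 0.74, Cxcl9 to -1.33, Fos to 0.079, Hnf4a to -0.055, Klf4 to 0.064, Mki67 to -0.14, Nlrc5 to -0.51 and Pdgfra to -0.021. With the pan-leukocyte covariate Apoe turned to -0.43, C1qa to -1.04 and Lyz2 to -0.32.

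Depth is not known from TPM, 3 libraries per label limit the precision, and the values of 1 tumour line give no other line to compare.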

Other observations

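Among genes outside the lists, the difference in abundance was led by a few secreted and cytoskeletal genes, chosen here after their values were seen, as the genes with the largest difference in mean TPM that were called on both scales without overlap. Crisp1, a cysteine-rich secretory protein known from the epididymis, was 3749.9, 3498 and 4116 TPM in the Klf5KO-labelled libraries and 516, 404 and 497 TPM in Smad4KO, with 566 ± 92.3 TPM (SD, n = 3) in WT, so the high level stood in the Klf5KO-labelled libraries. Igfbp4, a binding protein of insulin-like growth factors, was 3571, 3171 and 3643 TPM against 1409, 1558 and 1485 TPM, and Lgals1, a galectin common in mesenchymal cells, was 3138, 3320.2 and 3406 TPM against 1685, 1577 and 1651 TPM. The actin genes Actg1 (0.54 ± 0.05, log2 difference with SE) and Actb (0.47 ± 0.09) were higher as well. Apoe, which macrophages also express, was 799, 1301 and 1298 TPM against 496, 110.3 and 502 TPM, lowest in Smad4KO replicate 2.

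In the other direction, the chitinase-like gene Chil4 was 494, 1102 and 989.5 TPM in the Klf5KO-labelled libraries and 3495, 4204 and 3420.0 TPM in Smad4KO, with 374 ± 209.8 TPM in WT, so both labels lay above the WT mean. Chil4 has a close relative in Chil3, between which reads can be divided. Lgals2, a gut epithelial galectin, was 939, 1008 and 972 TPM against 1913, 1619 and 1811 TPM, and Fxyd3, a regulator of the sodium pump in epithelial cells, was 76.3, 61.9 and 47.4 TPM against 515, 460.1 and 481 TPM. Of 82 ribosomal protein genes tested, 73 were lower and 2 higher as measured, and 79 were lower and 1 higher after scaling, with a median log2 difference of -0.49 as measured. Tpt1, a translationally controlled protein that is often expressed with them, was 5429, 5846 and 5229 TPM against 8813, 9446 and 9214 TPM.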
